A study of Mus musculus with 10 samples.

Results

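A set of 4 genes for nuclear receptors of the circadian clock were followed in the cerebellum of Bmal1 knockout and wild-type mice: Nr1d1 and Nr1d2, which encode REV-ERB alpha and REV-ERB beta, and Rora and Rorb, which encode ROR alpha and ROR beta. They were taken by gene symbol, and all 4 were found among the 22046 genes of the deposited tables. The knockout animals were Bmal1-/- and the wild-type animals Bmal1+/+, littermates from crosses of Bmal1+/- parents on a C57BL/6 background, housed under a cycle of 12 h light and 12 h dark. Sex, age and the hour of sampling are not in the labels, and a knockout of this kind lacks the gene in all cells, not in the cerebellum alone. Each genotype is represented by 2 animals (knockout 1 and 3, wild type 2 and 3), each with 1 total RNA library and 1 library of ribosome footprints made from the same lysate. Ribosome footprints are the stretches of mRNA of 28 to 34 nt that a ribosome covers and protects from RNase I, so their number follows how much of an mRNA is being translated.

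REV-ERB and ROR receptors bind the same short DNA element and act on it in opposite ways. The REV-ERB proteins bind haem, lack the helix by which other nuclear receptors hold coactivators, and repress transcription through a corepressor complex that holds the histone deacetylase HDAC3, while the ROR proteins activate transcription. The genes Nr1d1 and Nr1d2 are themselves switched on by BMAL1 and its partner CLOCK through E-box motifs, and REV-ERB proteins in turn repress the Bmal1 gene, Arntl, which closes a feedback loop. In the cerebellum Rora is best known from Purkinje cells, which fail to mature in the staggerer mouse, a Rora mutant. Rorb is best known from the retina and from the cerebral cortex.

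The reads recovered from the deposited values numbered 38.9 M and 43.2 M in knockout total RNA and 25.6 M and 27.8 M in wild-type total RNA, and 41.0 M and 30.1 M in knockout footprints and 38.1 M and 27.7 M in wild-type footprints. Values per library are RPKM (reads scaled to length and library depth) as deposited. These are compared only within a gene, because the number of reads behind 1 RPKM was 12.6 for Nr1d1, 273 for Nr1d2, 211 for Rora and 283 for Rorb and had no rank correlation with coding or exon length over 13878 genes (Spearman rho 0.0 for each). "Called" means a Benjamini-Hochberg adjusted p under 0.05 in limma on log2(RPKM + 1), adjusted over all genes tested, and a log2 fold change is the knockout minus the wild type. With 2 animals a group, p-values set each difference against the spread between these animals, moderated by the variance of all genes tested. The targeted gene, Arntl, had 124 and 107 RPKM of footprints in the knockout, against 258 and 295 RPKM in the wild type. Its total RNA was 267 and 272 RPKM in the knockout, against 179 RPKM in each wild-type animal. Where in Arntl the deletion lies is not given in the labels.

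The start regions of both REV-ERB genes are shown because BMAL1 acts on such regions through E-boxes and because both genes were lower in the knockout. Each is 300 bases from RefSeq (GRCm38.p6), 250 before to 50 after the start of a transcript, written 5′ to 3′ on the strand of the gene. Nr1d1 lies on the minus strand of chromosome 11 and its window is chr11:98775328-98775627. Nr1d2 lies on the minus strand of chromosome 14 and its window is chr14:18239057-18239356. Capitals mark the motif found.
Nr1d1: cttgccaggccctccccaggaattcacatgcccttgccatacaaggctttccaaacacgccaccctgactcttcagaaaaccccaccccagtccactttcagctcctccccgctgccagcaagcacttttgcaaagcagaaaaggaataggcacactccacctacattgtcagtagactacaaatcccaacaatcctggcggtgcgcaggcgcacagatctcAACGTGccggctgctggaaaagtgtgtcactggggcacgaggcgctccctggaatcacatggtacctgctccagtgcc
Nr1d2: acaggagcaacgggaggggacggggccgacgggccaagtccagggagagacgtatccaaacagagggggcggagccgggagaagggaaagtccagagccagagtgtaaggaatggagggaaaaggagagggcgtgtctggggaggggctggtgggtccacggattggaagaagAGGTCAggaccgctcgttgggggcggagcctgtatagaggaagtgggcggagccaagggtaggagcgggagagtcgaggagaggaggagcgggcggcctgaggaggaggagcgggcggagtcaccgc
The motifs searched on both strands were the E-box CACGTG, its variant CACGTT, the hexamer AGGTCA of the element that REV-ERB and ROR bind, the same with a preceding T (TAGGTCA), and the D-box TTATGTAA. The Nr1d1 window held CACGTT on the opposite strand, read as AACGTG in the sequence above and starting 28 bases before the start (at -28). The Nr1d2 window held AGGTCA starting at -77. Neither window held CACGTG. Of 32851 start windows of the same length, 7.15% held CACGTG, 4.68% held CACGTT and 16.26% held AGGTCA. The Rora window (chr9:68653536-68653835) held none of these motifs, nor did the first Rorb window (chr19:19111147-19111446), while a second Rorb window (chr19:19001068-19001367) held CACGTT on the opposite strand. A match describes the letters and does not show a bound site, and no match says only that these letters are not in the window.

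In total RNA both REV-ERB genes fell in the knockout and neither ROR gene was called. Nr1d2 (ENSMUSG00000021775; mm10 chromosome 14, 18204054 to 18239127) had 1.92 and 1.85 RPKM in the knockout, against 26.5 and 26.8 RPKM in the wild type. The knockout kept 7.08% of the wild-type mean, a 14.1-fold lower level, and the animals of a genotype lay within 1.03-fold of each other. Its log2 fold change was -3.26 (SE 0.10, 95% interval -3.51 to -3.01, adjusted p = 0.000227). The pseudocount shrinks this value because the knockout level is near 1 RPKM, and on recovered reads limma-voom gave -3.84 (adjusted p = 5.93e-18). Those reads numbered 631 and 678 in the knockout, against 5879 and 6336 in the wild type.

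Nr1d1 (ENSMUSG00000020889; chromosome 11, 98767932 to 98775333) had 30.1 and 26.1 RPKM in the knockout, against 117 and 107 RPKM in the wild type. All values of one genotype were apart from those of the other, and the knockout mean was 25.2% of the wild-type mean, or 3.97-fold lower. The log2 fold change was -1.96 (SE 0.11, 95% interval -2.22 to -1.69, adjusted p = 0.0018). Although its RPKM is high, Nr1d1 rests on few reads, 455 and 439 in the knockout, against 1186 and 1163 in the wild type. The REV-ERB pair thus made up 2 of the 204 genes called lower, against a background of 1.61% of the 12690 genes tested (6.77% by limma-voom). Both stayed called in all 11 alternative settings tried.

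**Figure D1:**
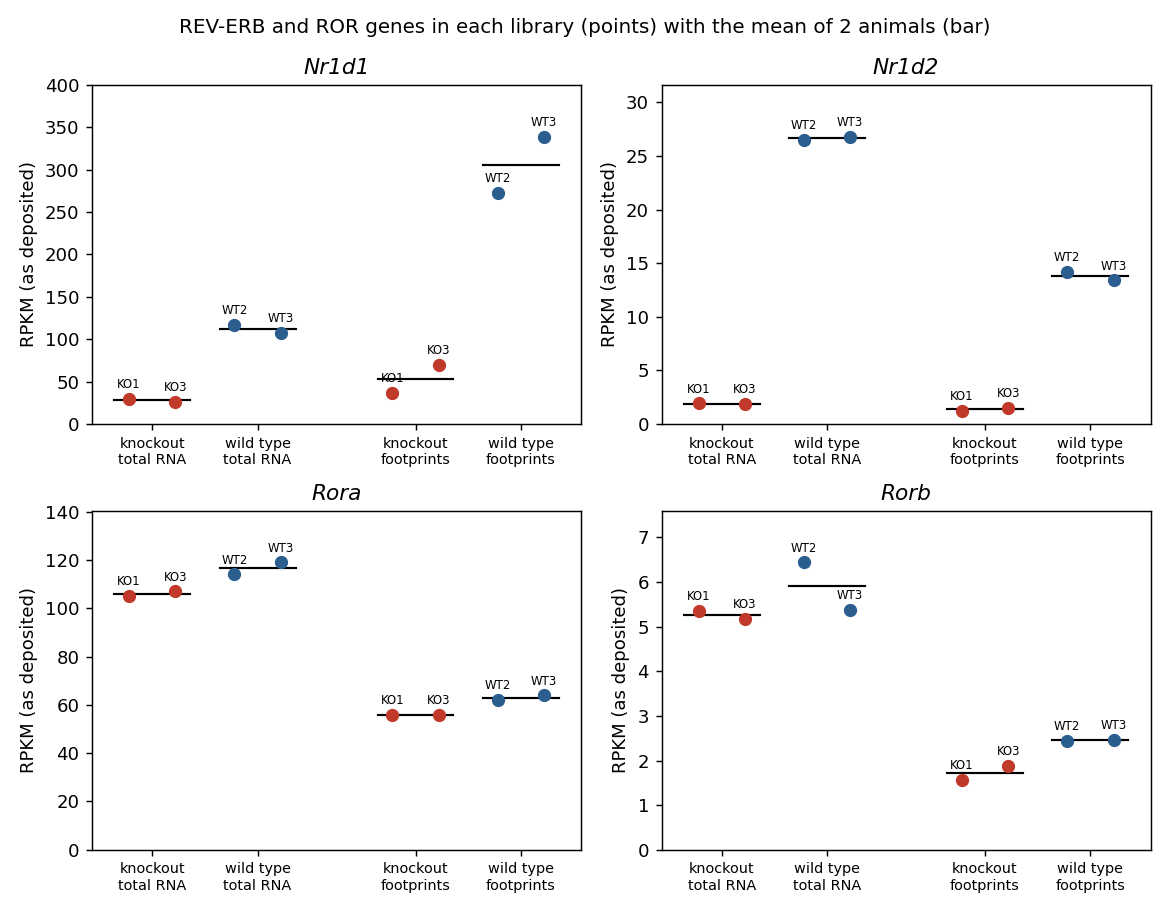
RPKM of each gene in each library (linear axes from 0, a panel per gene), with points for knockout (red) and wild-type (blue) animals and bars for the mean of 2 animals. Nr1d1 and Nr1d2 sit far lower in the knockout in both kinds of library, while Rora keeps 91.2% of its wild-type mean in total RNA and 89.0% in footprints.

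Rora (ENSMUSG00000032238; chromosome 9, 68653786 to 69388246) had 105 and 107 RPKM of total RNA in the knockout, against 114 and 119 RPKM in the wild type. Both knockout animals were below both wild-type animals by a small margin, which was true of 30.3% of all genes tested. The log2 fold change of -0.13 (SE 0.08, adjusted p = 0.407) was not called, and its 95% interval spans 0.795 to 1.05 times the wild-type RPKM + 1. Limma-voom gave -0.15 (95% interval 0.81 to 0.997 times the wild-type level, unadjusted p = 0.0434, adjusted p = 0.168), also not called. Rorb (ENSMUSG00000036192; chromosome 19, 18930605 to 19111196) had 5.35 and 5.18 RPKM in the knockout, against 6.44 and 5.37 RPKM in the wild type. Wild type 2 was the high animal, and wild type 3 lay next to the knockout values. The log2 fold change was -0.14 (SE 0.13, adjusted p = 0.578), with an interval of 0.735 to 1.13 times the wild-type RPKM + 1. It was -0.02 without wild type 2 and -0.25 without wild type 3. Wild type 2 was also set apart by Hoxa5, a gene of the hindbrain beside the cerebellum, whose total RNA was 1.39 and 1.57 RPKM in the knockout, against 40.6 and 0.727 RPKM in wild type 2 and 3. The part of this difference in the Rorb value was not tested.

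Footprints showed the same order of sizes, with larger spread. Nr1d2 footprints were 1.2 and 1.53 RPKM in the knockout, against 14.2 and 13.4 RPKM in the wild type. The knockout kept 9.9% of the wild-type mean, a 10.1-fold lower level. Nr1d2 fell by 2.65 on the log2 scale (SE 0.19, 95% interval -3.11 to -2.18, adjusted p = 0.025), and limma-voom gave -3.36 (adjusted p = 1.22e-06). It was the only one of the 4 receptor genes called in footprints, where 0.104% of 12447 genes were called lower. The call was lost without any 1 of the 4 animals (adjusted p 0.15 to 0.176) and with no filter on low values (0.139), at log2 fold changes of -2.75 to -2.55.

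Nr1d1 footprints were 36.9 and 70.2 RPKM in the knockout, against 273 and 339 RPKM in the wild type. The knockout mean was 17.5% of the wild-type mean, or 5.71-fold lower, and the genotypes did not overlap. The knockout animals themselves differed by 1.92-fold, a gap reached by 5.96% of 12251 genes in the knockout footprints. Of the recovered reads, Nr1d1 took 13.3 per M of the library (RPM, exact Poisson 95% interval 12.2 to 14.5) in knockout 1 and 25.5 (23.7 to 27.4) in knockout 3. These intervals do not overlap and cover counting error only, and the source of the gap was not tested. In total RNA of the same animals the gap was 1.15-fold and ran the other way, with knockout 1 higher. The footprint log2 fold change of -2.55 (SE 0.31, 95% interval -3.34 to -1.77) missed the threshold (unadjusted p = 0.000291, adjusted p = 0.0788). It was called by limma-voom (-2.61, adjusted p = 4.7e-05, where 0.677% of genes were called lower), with a read count filter (0.0251) and with all libraries in 1 fit (0.00522). Its value was -2.10 without knockout 1 and -3.01 without knockout 3.

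Rora footprints were 56.0 and 55.9 RPKM in the knockout, against 61.9 and 63.9 RPKM in the wild type. The log2 fold change was -0.17 (SE 0.12, adjusted p = 0.774), with an interval of 0.721 to 1.1 times the wild-type RPKM + 1. By RPM, the animals of a genotype lay within 1.03-fold of each other for Rora in both kinds of library. Nr1d2 was closer in wild-type total RNA (1.01-fold), and Rorb in wild-type footprints (1.01-fold). Rorb footprints were 1.57 and 1.88 RPKM in the knockout, against 2.44 and 2.47 RPKM in the wild type, so that the knockout mean was 70.1% of the wild-type mean. This difference was not called (-0.35, SE 0.22, adjusted p = 0.712). Its 95% interval reaches from 0.538 to 1.15 times the wild-type RPKM + 1, and the pseudocount of 1 shrinks changes at such low levels. Limma-voom gave -0.52 (95% interval 0.501 to 0.966 times the wild-type level, unadjusted p = 0.0326, adjusted p = 0.408), also not called. Rorb had 464 to 522 recovered footprint reads per knockout library and 555 to 754 per wild-type library. All 4 genes had both knockout values below both wild-type values in both kinds of library, which held for 30.3% of all genes in total RNA and 22.6% in footprints.

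**Figure D2:**
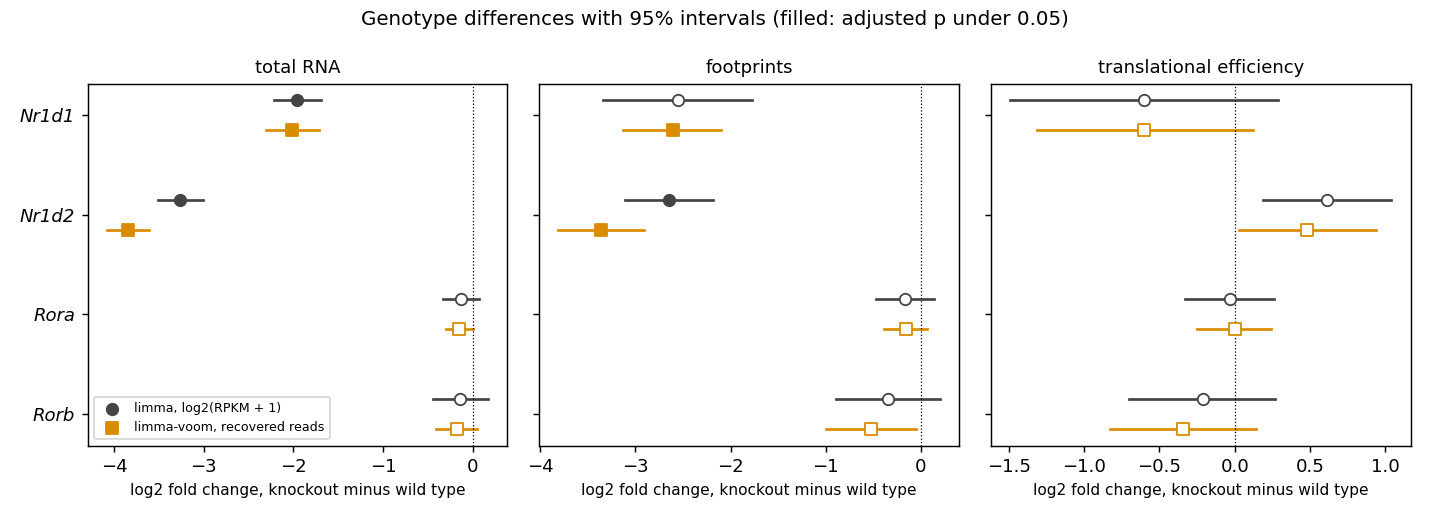
Log2 fold changes (knockout minus wild type) of the 4 genes for total RNA, footprints and translational efficiency; circles are limma on log2(RPKM + 1), squares limma-voom on recovered reads, bars 95% intervals, and filled symbols passed an adjusted p of 0.05. By limma Nr1d2 lies at -3.26 and -2.65 and Nr1d1 at -1.96 and -2.55 in total RNA and footprints. The limma intervals of Rora and Rorb include 0 in every panel. The limma-voom intervals of Rora in total RNA and of Rorb in footprints lie below 0, though neither was called.

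Translational efficiency, the footprints of a gene relative to its total RNA, was not called for any of the 4 receptor genes. In the authors' deposited table this ratio for Nr1d2 was 0.628 and 0.825 in the knockout, against 0.535 and 0.500 in the wild type. The fitted difference was 0.61 log2 units (SE 0.18, 95% interval 0.19 to 1.04, unadjusted p = 0.0108, adjusted p = 0.971). By limma-voom it was 0.48 (unadjusted p = 0.0372, adjusted p = 0.983). With a pseudocount of 0.1 it was 0.50 (limma adjusted p = 0.998), so the pseudocount of 1 raises this value. An unadjusted p under 0.05 was reached by 4.55% of the 12089 genes tested, and 0.0165% were called (0.00835% by limma-voom). For Nr1d1 the authors' deposited table gave 1.23 and 2.69 in the knockout, against 2.34 and 3.17 in the wild type. These overlap, since knockout 3 lies between the wild-type animals. The fitted difference of -0.60 (SE 0.38, 95% interval -1.49 to 0.29, adjusted p = 0.997) rests on knockout 1, being -0.05 without it and -1.15 without knockout 3.

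Neither ROR gene was called in efficiency. The authors' deposited table gave Rora 0.533 and 0.522 in the knockout, against 0.544 and 0.537 in the wild type, a fitted difference of -0.03 (SE 0.13, adjusted p = 0.997). For Rorb it gave 0.293 and 0.363 in the knockout, against 0.380 and 0.461 in the wild type (-0.21, SE 0.21, adjusted p = 0.997). The 95% interval for Rorb, -0.70 to 0.27, leaves room for a change of either sign.

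Levels can be set between the genes when reads are scaled to length. RPM was divided by the annotated exon length in kilobases for total RNA, and by the coding length for footprints. In knockout total RNA Rora led with 53.0 RPM per kb, followed by Rorb at 4.17, Nr1d1 at 3.55 and Nr1d2 at 2.95. In wild-type total RNA Rora was at 59.1 RPM per kb, Nr1d2 at 42.4, Nr1d1 at 14.3 and Rorb at 4.75. Nr1d2 thus stood last of the 4 in the knockout and next to Rora in the wild type, and no neighbours in either order had overlapping animals.

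Footprints gave another order. Rora led in both genotypes, with 204 RPM per coding kb in the knockout, against 228 in the wild type. Below it, Nr1d1 (7.21 and 13.8) and Rorb (8.99 and 10.9) overlapped in the knockout, with Nr1d2 lowest at 5.46 and 7.0. In the wild type Nr1d2 (64.4 and 60.6) and Nr1d1 (53.2 and 66.0) overlapped, and Rorb stood lowest at 14.0 and 14.1. The lengths cover all annotated transcripts (3077 bp of exons for Nr1d1, 5409 for Nr1d2, 13071 for Rora and 11076 for Rorb), so a gene that uses a shorter form in cerebellum is given too low a level.

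**Figure D3:**
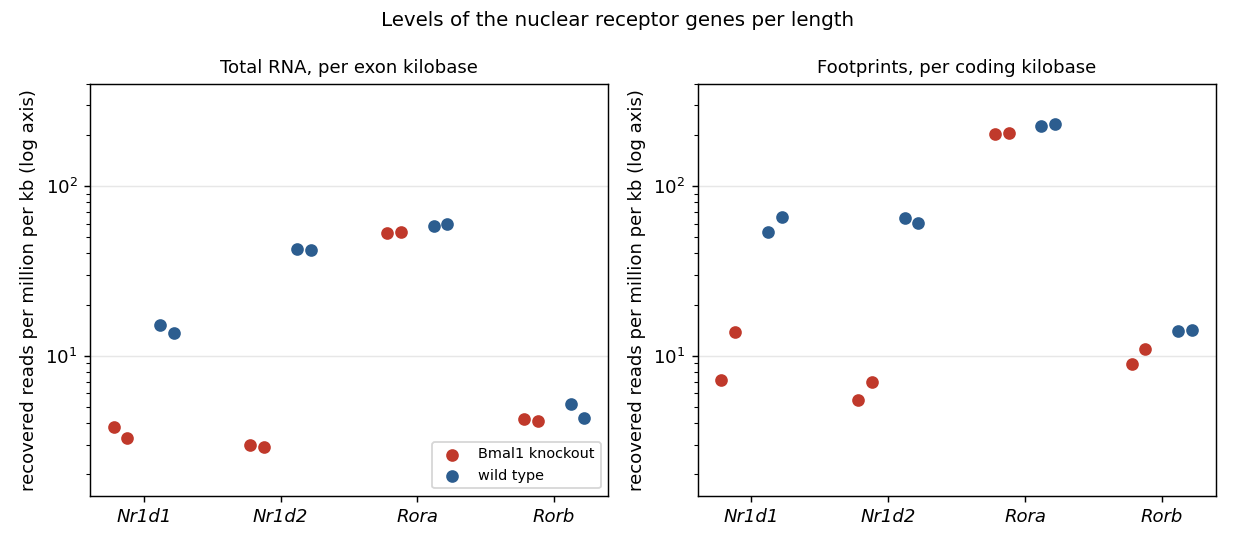
RPM per kb on a log axis of the 4 genes in knockout (red) and wild-type (blue) animals, for total RNA over exon length and footprints over coding length. Rora is highest in every library, and Nr1d2 lies below the other receptor genes in the knockout while it is next to Rora in wild-type total RNA.

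The REV-ERB pair was also set against each other within each library. For every read of Nr1d1 there were 1.39 and 1.54 reads of Nr1d2 in knockout total RNA, against 4.96 and 5.45 in wild-type total RNA, a difference of -1.83 log2 units. In footprints the ratio was 0.710 and 0.474 in the knockout, against 1.13 and 0.860 in the wild type (-0.77). Both differences had the genotypes apart and gave an exact two-sided permutation p of 0.333, the smallest that 2 against 2 animals allow (0.444 adjusted by Benjamini-Hochberg over 4 ratios). The ratios of Rorb to Rora were 0.0683 and 0.0648 in knockout total RNA and 0.0759 and 0.0605 in wild-type total RNA, which overlap. In footprints they were 0.0375 and 0.0452 in the knockout, against 0.0529 and 0.0519 in the wild type (-0.35, exact permutation p = 0.333). Rora reads outnumbered Rorb reads in every library.

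One genomic feature bears on the Nr1d1 values. Exons of Nr1d1 and of Thra, the thyroid hormone receptor alpha gene on the opposite strand, share 263 bp (chromosome 11, 98768157 to 98768419), of which 197 bp are coding sequence of Nr1d1. Whether reads were counted by strand is not stated, so reads from this stretch cannot be assigned to one gene. Thra total RNA was 286 and 275 RPKM in the knockout, against 187 and 192 RPKM in the wild type. It rose by 0.56 log2 units (SE 0.08, adjusted p = 0.0202), a call lost without knockout 1, knockout 3 or wild type 2 (adjusted p 0.0541 to 0.148), so the 2 overlapping genes moved in opposite directions.

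In whole tissue, fewer cells of a type and less RNA per cell cannot be told apart, so cell markers are set beside the receptors. The 8 markers of Purkinje cells, in which Rora is known to act, summed to 8974 and 9949 RPM in knockout total RNA, against 9960 and 11098 in wild-type total RNA. The ranges nearly meet, none of the 8 was called (1 lower by limma-voom), and the median log2 fold change was -0.13, equal to that of Rora. In footprints the sums were 11209 and 10754 in the knockout, against 11270 and 11331 in the wild type. The median log2 fold change of the markers there was -0.03, against -0.17 for Rora. Pcp2, Pcp4, Itpr1 and Slc1a6 are in this list and also in the list of RORA targets described below. Markers of molecular layer interneurons, another cell type with Rora, summed to 1440 and 1448 in knockout and 1570 and 1628 in wild-type total RNA. This sum covers opposite changes: of its 5 genes 2 were above and 3 below 0, with 0 called (1 higher and 2 lower by limma-voom). In footprints the sums overlapped, at 3224 and 2984 in the knockout and 3247 and 3114 in the wild type. The part of these cell types in the small Rora difference was not tested.

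Markers of other cells also differed between animals, and their part in the REV-ERB values was not tested. Choroid plexus markers summed to 1823 and 2154 RPM in knockout total RNA and to 854 and 53.6 in wild type 2 and 3, while Nr1d2 differed by 1.01-fold and Nr1d1 by 1.11-fold between those wild-type animals. Oligodendrocyte markers were 3334 and 3109 in the knockout, against 5357 and 3730 in the wild type, microglia markers 80.7 and 82.7 against 109 and 113, and granule neuron markers 6093 and 6100 against 4930 and 5287. Astrocyte and Bergmann glia markers were 2761 and 2880 in the knockout, against 3016 and 3092 in the wild type. Endothelial markers were 124 and 106 in the knockout, against 94.8 and 68.6 in the wild type, and meningeal markers 156 and 150 against 115 and 118. The meningeal sum covers opposite changes, since Igfbp2 rose (1.07, adjusted p = 0.0128) and Dcn fell (-0.82, adjusted p = 0.00916). Of the brainstem and midbrain list only 2 of 7 genes could be summed (84.8 and 88.2 in knockout and 130 and 126 in wild-type animals), and single members went both ways in total RNA: Slc17a6 fell (-0.55, adjusted p = 0.0277) and Tph2 rose (0.89, adjusted p = 0.0402). Slc17a6 and Tph2 kept their calls only when wild type 3 was the animal left out, and Igfbp2 and Dcn lost theirs when knockout 1 was left out. No marker was at 0 in every library.

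Genes that other studies give as repressed by REV-ERB or activated by ROR were higher in knockout total RNA. Of 13 listed genes 11 were tested, and 7 rose and 0 fell, against 2.48% of all genes called higher; 4 were not called. The median log2 fold change was 0.69, against -0.017 over all genes tested. The list was drawn up with results of these data known, so its direction is not independent evidence. Fabp7, a fatty acid binding protein gene of astrocytes and Bergmann glia known in mouse as repressed by REV-ERB alpha, had 244 and 249 RPKM in the knockout, against 17.9 and 16.6 RPKM in the wild type. It rose by 3.76 log2 units (SE 0.09, adjusted p = 5.62e-05). The 6 markers of astrocytes and Bergmann glia, summed above for total RNA, came to 4181 and 4152 RPM in knockout and 4151 and 4157 RPM in wild-type footprints, with members on both sides of 0, and their part in the Fabp7 difference was not tested.

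Npas2, a paralog of Clock and a direct REV-ERB target in mouse, had 11.5 and 9.65 RPKM in the knockout, against 0.437 and 0.554 RPKM in the wild type (2.95, SE 0.14, adjusted p = 0.00127). Cdkn1a, the gene of the cell cycle inhibitor p21, had 14.8 and 13.8 RPKM in the knockout, against 2.79 and 1.82 RPKM in the wild type (2.23, SE 0.16, adjusted p = 0.00363). Nfil3, a repressor that binds D-boxes, had 169 and 191 RPKM in the knockout, against 79.5 and 75.0 RPKM in the wild type (1.21, SE 0.10, adjusted p = 0.00398). In each of these genes the lowest knockout value was above the highest wild-type value. With 2 animals a group a full separation of the genotypes is common. The reverse order held for 30.3% of all genes tested in total RNA, and the share with this order is not reported here. Cry1 (1.03), Clock (0.69) and Arntl itself (0.59) also rose. The calls of Clock and Arntl were lost without knockout 1 or knockout 3.

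Not every gene of that list was higher. Th (-0.11), the gene of the first enzyme of dopamine synthesis, and the inflammasome gene Nlrp3 (-0.13) were not called, and Elovl3 and Ccl2 were too low to test. In footprints 3 of the 11 genes rose and 0 fell, against 0.129% of all genes called higher, and the median was 0.77 against -0.028 over all genes. Fabp7 had 810 and 678 RPKM of footprints in the knockout, against 43.7 and 37.7 RPKM in the wild type (4.16, adjusted p = 0.00262). Npas2 footprints were 8.59 and 9.03 RPKM in the knockout, against 0.808 and 1.29 RPKM in the wild type (2.27, adjusted p = 0.0401). Cdkn1a footprints were 28.3 and 39.2 RPKM in the knockout, against 6.04 and 5.30 RPKM in the wild type (2.37, adjusted p = 0.0351). The Npas2 and Cdkn1a calls were lost without any 1 animal, and the Fabp7 call without either knockout animal (adjusted p = 0.0867 and 0.0695). In translational efficiency 1 gene of the list was called, Arntl, whose ratio fell by 1.84 log2 units (SE 0.15, adjusted p = 0.0367), a call lost without any 1 animal and with the animal as a block (0.132).

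**Figure D4:**
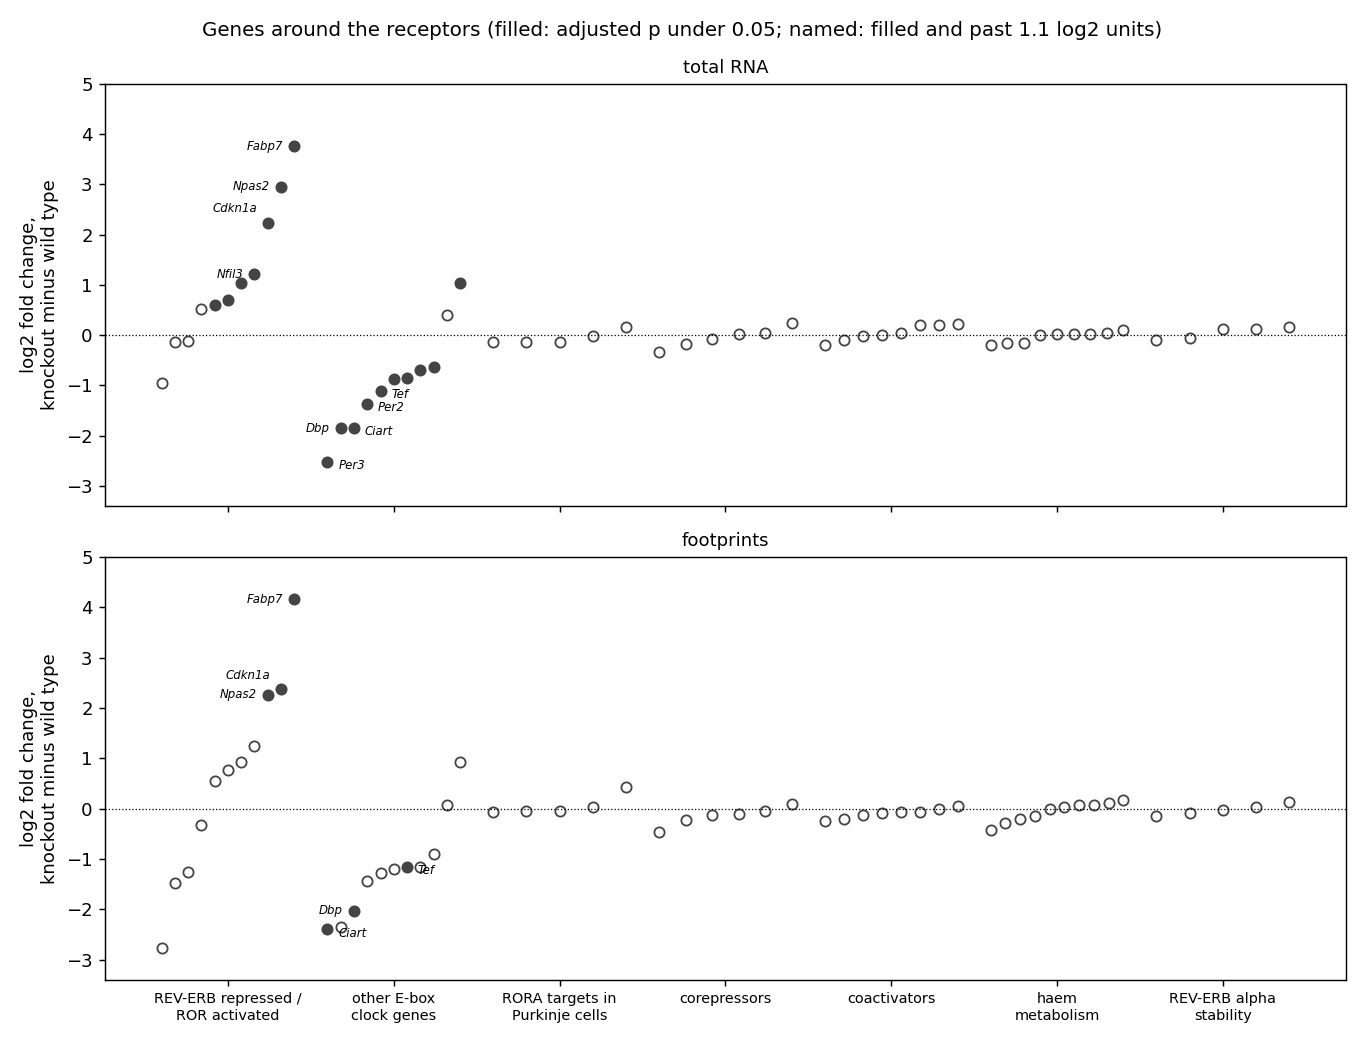
Log2 fold changes (knockout minus wild type) of single genes in 7 lists around the receptors, in total RNA and in footprints; filled points passed an adjusted p of 0.05, and those past 1.1 log2 units are named. Points of the first list reach 3.76 in total RNA, the E-box clock genes are mostly below 0, and the lists on the right stay near 0 with no filled point.

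Clock genes driven through E-boxes, the motif class through which BMAL1 also drives the REV-ERB genes, were mostly lower. Of 11 genes, 9 fell and 1 (Cry1, also in the list above) rose in total RNA, against 1.61% of all genes called lower and 2.48% called higher, with a median of -0.87. The largest decreases were in Per3, with 2.46 and 2.30 RPKM in the knockout against 16.6 and 20.3 RPKM in the wild type (-2.52, adjusted p = 0.00168), and Dbp, with 4.06 and 3.93 RPKM in the knockout against 16.4 and 17.6 RPKM in the wild type (-1.85, adjusted p = 0.0018). Ciart, which encodes a repressor of the BMAL1 complex, had 0.905 and 1.21 RPKM in the knockout, against 6.85 and 5.92 RPKM in the wild type (-1.84, adjusted p = 0.00398). Per2 followed at -1.37 (adjusted p = 0.0149), a call lost without wild type 2 (0.0538). The smaller decreases were less firm: of the 11 alternative settings, Per1 and Bhlhe41 lost their calls in 8 each, Hlf in 5 and Bhlhe40 in 2. Among these, each lost it without knockout 3, all but Bhlhe40 without wild type 2, Bhlhe41 and Hlf without knockout 1, and Per1 without wild type 3. The Nr1d2 difference in total RNA, -3.26, lay below that of each of the 11 genes, also with a pseudocount of 0.1 and by limma-voom. In footprints 0 rose and 3 fell (Ciart, Dbp and Tef), against 0.104% of all genes called lower, with a median of -1.19, and each of these calls was lost without any 1 animal. By limma-voom, which called 0.677% of all genes lower and 0.947% higher in footprints, 9 were called lower and 1 higher.

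None of the partner lists of the receptors, nor the list of RORA targets in Purkinje cells, held a called gene, in a background of 4.09% of genes called in either direction in total RNA (13.1% by limma-voom) and 0.233% in footprints (1.62% by limma-voom). The 5 Purkinje cell genes known as RORA targets (Shh, Slc1a6, Pcp2, Pcp4 and Itpr1) had medians of -0.13 in total RNA and -0.04 in footprints, with 0 called by limma or limma-voom and 0 at an unadjusted p under 0.05. Pcp2, a G protein regulator of Purkinje cells, had 942 and 943 RPKM of total RNA in the knockout, against 1024 and 1033 RPKM in the wild type (-0.13, adjusted p = 0.339). Of the 6 genes of the REV-ERB corepressor complex 0 were called by either tool, with medians of -0.03 and -0.12. At an unadjusted p under 0.05 there were 2 in total RNA, among them Gps2 (-0.34), and 1 in footprints, Tbl1xr1 (-0.46), against 22.1% and 10.4% of all genes. The 8 coactivators of ROR had medians of 0.03 and -0.08, the genes of haem synthesis and breakdown 0.03 and 0.02, and the factors that act on REV-ERB alpha stability 0.12 and -0.03. None of these 3 lists had a gene called by either tool or at an unadjusted p under 0.05, and Hmox1 (total RNA) and Cdk1 were too low to test.

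The genes whose pattern over the 8 libraries was most like that of each receptor gene were found by the root mean square difference of log2(RPKM + 1), centred within each kind of library, among 12089 genes. The 8 libraries come from 4 animals, and the values describe likeness without a test. For Nr1d1 they were Dbp (0.28, Pearson r 0.98), Clec3b (0.324, r 0.98), which encodes tetranectin, and Sulf1 (0.328, r 0.96), a heparan sulfatase gene. For Nr1d2 they were Etnppl (0.257, r 0.99), a phospholyase gene of astrocytes, Per3 (0.37, r 0.98) and Ifit3b (0.383, r 0.97), an interferon-induced gene whose reads are uncertain because it has a near-identical copy. All 6 fell in total RNA, by 1.37 (Clec3b) to 2.99 (Ifit3b) log2 units; the Clec3b call was lost without knockout 3 or either wild-type animal. Clec3b shared with Nr1d1 a larger difference in footprints, -2.02 against -1.37 in total RNA, without being called there (adjusted p = 0.156).

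The ROR genes resembled genes with small differences. The nearest to Rora were Ptchd1 (0.0245, r 0.96), a gene of a patched-domain membrane protein, Scarb2 (0.0252, r 0.96), a lysosomal membrane protein gene, and Ncbp1 (0.0281, r 0.93), which encodes a nuclear cap-binding protein. Their log2 fold changes were -0.09 to -0.06 in total RNA and -0.21 to -0.16 in footprints, with none called. The nearest to Rorb were Nr2f2 (0.0154, r 1.0), which encodes the orphan nuclear receptor COUP-TFII, Fndc3a (0.0308, r 0.99) and Ssfa2 (0.0343, r 0.98). As for Rorb, their log2 fold changes were further below 0 in footprints (-0.39 to -0.34) than in total RNA (-0.21 to -0.14), with none called.

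**Figure D5:**
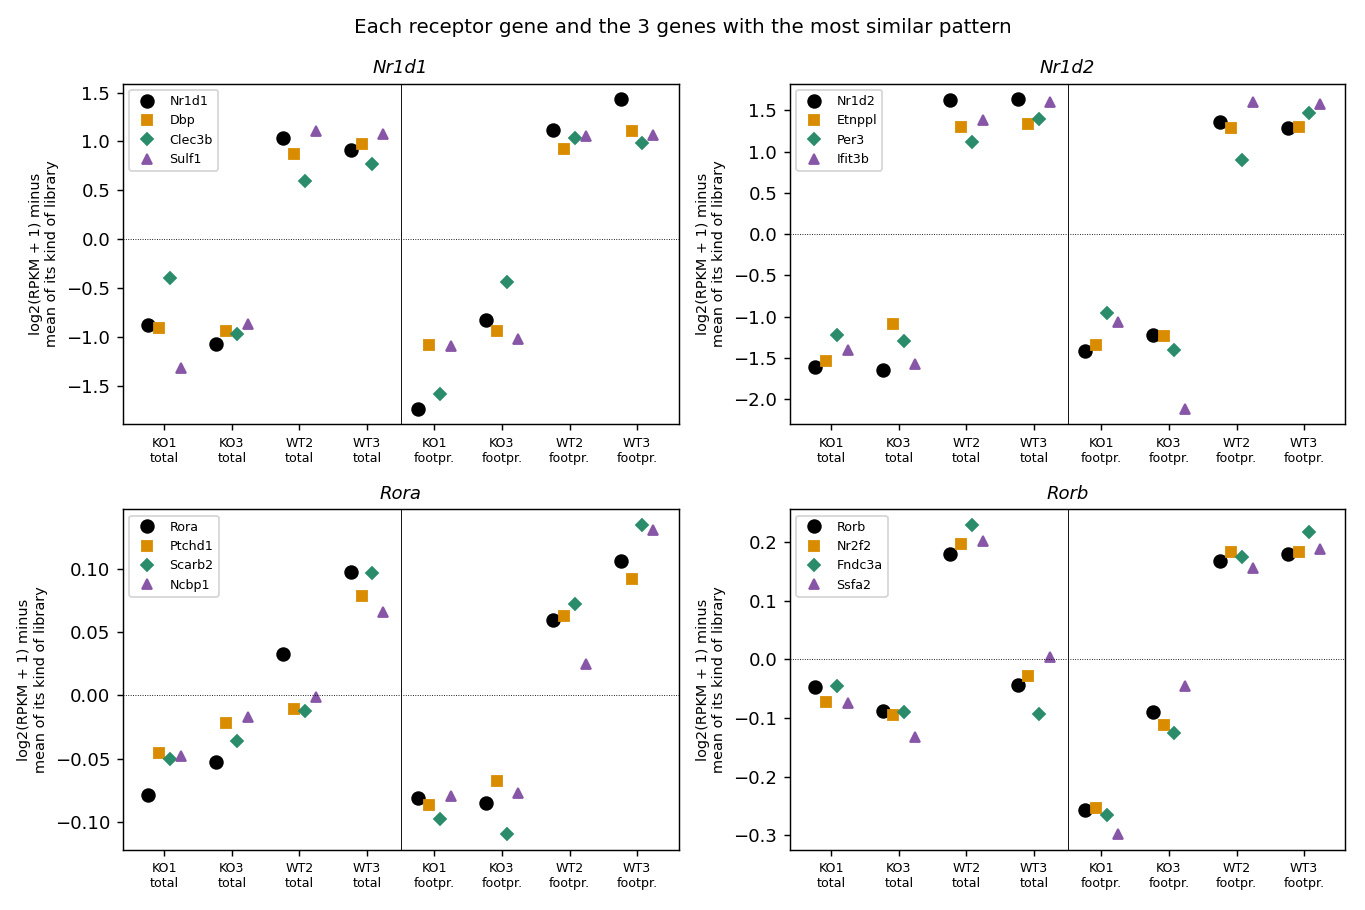
Centred log2(RPKM + 1) of each receptor gene and of the 3 genes with the most similar pattern in the 8 libraries, a panel per receptor gene. Knockout values lie below and wild-type values above the centre line in the Nr1d1 and Nr1d2 panels, Clec3b is the one neighbour that shares the gap of Nr1d1 between the knockout footprint libraries, and the vertical range is far smaller for Rora and Rorb.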

How the data were processed

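The build was mm10 and the tools were Bowtie, STAR and Cufflinks, per the submitters' processing notes; their versions, roles and use of strand are not given in the sources used here. The authors deposited RPKM per gene for 8 of 10 labelled libraries and, in a second table, translational efficiency as the ratio of footprint to total RNA RPKM. In 56068 values with both RPKM at 0.1 or more, 0 ratios were off by over 2%. Total RNA of knockout 2 and wild type 1 was not analysed here, so that total RNA was compared as 2 against 2 animals.

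The deposited mean read count per gene and the steps between low RPKM values gave back whole reads for 13880 genes: where a gene's mean was under 20 reads, 99.93% of 4392 values lay within 0.1 of a whole number. These reads served limma-voom, an alternative, and levels per length (GENCODE M21 lengths). The depths in the report limit precision by counting error only.

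The log2(RPKM + 1) values were fitted by limma 3.58.1 (R 4.3.3; moderated with a trend of variance on level; two-sided). Genes needed an average of 1 RPKM or more, p-values were adjusted by Benjamini-Hochberg over all of them with a threshold of 0.05, and efficiency was the genotype by library kind interaction. Within total RNA or footprints, a fold change on this scale understates the change of low genes. An efficiency difference of low genes can be shifted either way. With a pseudocount of 0.1 that of Nr1d2 went from 0.61 to 0.50 and that of Rorb from -0.21 to -0.34. The script was tested on simulated data. Alternatives were a pseudocount of 0.1, no filter, a mean read count of at least 100, quantile normalization, no variance trend, limma-voom, all libraries in 1 fit, the animal as a block, and leaving out each animal. Footprints and total RNA of an animal share a lysate per the labels; their deviations from the group means correlated at 0.00 for knockout and 0.26 for wild-type animals. Genes named are the 4 receptors, Thra and 4 cell markers (added after values were seen), called genes of each list (the 4 largest, and others where their role is needed) and the 3 nearest patterns per receptor. The genes and lists were chosen with earlier results of these data known. Values of some listed genes are not reported here.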

Additional observations from a re-analysis of the deposited data

How the results depend on the processing

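With 2 animals a group, leaving 1 out leaves a lone animal assumed to vary like the others. The Nr1d1 and Nr1d2 calls in total RNA held in 11 of 11 alternatives (log2 fold changes -2.05 to -1.86 and -3.84 to -3.24), and Rora and Rorb were called in none. In footprints Nr1d2 was called in 6 of 11; without each animal in turn it was -2.75 to -2.55 and with no filter -2.65 (adjusted p = 0.139), not called. Nr1d1 in footprints was called under the filter of 100 reads (-2.55), with limma-voom (-2.61) and with all libraries in 1 fit (-2.55). The receptor genes called in footprints therefore numbered 1 as reported, 2 under each of these 3 settings, and 0 with no filter or without any 1 animal. Rora efficiency, -0.03, became 0.00 (adjusted p = 0.998) with quantile normalization; the cause was not tested. Over all genes, the 519 calls in total RNA became 26 with no filter, 798 with the read count filter, 1623 by limma-voom, 217 with all libraries in 1 fit and 117 to 563 without 1 animal. The 29 calls in footprints became 17 with a pseudocount of 0.1, 1 with no filter, 57, 199 and 315 under the same 3 settings, and 1 to 6 without 1 animal. The 2 calls in efficiency became 5 with a pseudocount of 0.1, 4 with no filter, 0 with quantile normalization, 0 without a variance trend, 1 by limma-voom, 1 with the animal as a replicate block, and 0 without any 1 animal. The block left the values of the receptors as they were (Nr1d2 0.61, adjusted p = 0.999) and changed none of their calls. No paired analysis was possible because, within a kind of library, the genotypes share only replicate number 3. Of the named genes, 3 values with no call changed sign without 1 animal: in total RNA Fndc3a was -0.30 to 0.03, Nlrp3 -0.38 to 0.13 and Th -0.27 to 0.06. Over the 70 other genes examined (list genes, neighbours, Thra and 4 markers), 1986 values kept direction and call, 35 gained a call, 111 lost one and 114 changed sign, with 0 of the 114 called before or after. Among the genes named, the total RNA calls ended by no filter were those of Arntl, Bhlhe40, Bhlhe41, Cdkn1a, Ciart, Clec3b, Clock, Cry1, Dcn, Etnppl, Hlf, Igfbp2, Nfil3, Per1, Per2, Slc17a6, Sulf1, Tef, Thra and Tph2.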
